A study of Mus musculus with 40 samples.

Results

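The receptors that carry fast and modulatory transmission by glutamate, GABA and glycine in the brain are encoded by several gene families, and 44 of their genes were followed here among 19937 genes measured in the brain of 9-day-old mice. They were chosen by symbol from probe sets annotated to 1 gene, with the probe set of highest mean signal taken for each gene. The 44 genes comprised 4 AMPA, 5 kainate, 6 NMDA and 1 delta receptor gene, 7 metabotropic glutamate receptor genes, 16 GABA-A receptor genes and 5 glycine receptor genes. Further genes of these families were not analysed here. The question was which of them changed after lipopolysaccharide (LPS, a bacterial cell wall component) and hypoxia-ischaemia (HI), and whether the immunomodulatory peptide IDR-1018 (IDR) altered that.

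All mice were C57/Bl6 pups at postnatal day 9, and total RNA of frozen brain was hybridised to 40 Affymetrix arrays in 8 groups of 5. Vehicle and IDR pups were given vehicle or the peptide 10 h before the brain was removed, and the LPS group received LPS 6 h before removal. In the LPS with IDR group the peptide preceded LPS by 4 h and the brain was taken 6 h after LPS. Each of the 4 LPS/HI sets had LPS 4 h after vehicle or IDR-1018, HI 14 h after that LPS and removal 6 h after HI; the left hemisphere was the injured one and the right the uninjured one. The tissue of the first 4 groups was labelled brain rather than hemisphere. Comparing an injured hemisphere with Vehicle or IDR therefore changes LPS, HI, time after LPS, time after vehicle or peptide and the piece of tissue together. These cannot be told apart. The labels do not say that the 5 arrays of a group came from separate pups, so p-values measure the spread between arrays, which may be technical.

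Ionotropic receptors are ion channels built from several subunits: AMPA and kainate receptors carry fast excitation, NMDA receptors admit calcium and serve plasticity, and GABA-A and glycine receptors are chloride channels. Metabotropic glutamate receptors couple to G proteins; group I receptors activate phospholipase C, while groups II and III lower cyclic AMP and often sit on presynaptic terminals. In the newborn brain the subunit mix differs from the adult one, and overactivation of glutamate receptors is a long-studied step in hypoxic-ischaemic injury.

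The values are log2 signals after RMA, a method that corrects background, equalises the distributions of the arrays and summarises probes, so each value ranks a gene between arrays and levels of different genes are not compared. Array medians ran from 6.99 to 7.13, and every array was distinct. The mean signal of 10 neuron markers was between 11.47 and 11.52 on the Vehicle arrays and no lower than 11.32 on any array, so the neuronal markers of brain were present throughout. The sex-linked transcripts were not balanced: Xist without Y-linked signal was found on 5 of 5 LPS arrays, 2 of 5 Vehicle arrays and 1 of 5 IDR arrays. Of the LPS/HI injured arrays, number 3 had both Xist (11.23) and Y-linked signal (mean 8.01), whereas the uninjured array of the same number had Xist alone. Number 5 of that group had a mean signal of 12 cerebellar markers of 8.66, against 8.19 to 8.30 on the other 4. This mean ran from 8.22 to 8.55 on the LPS/HI uninjured arrays, with number 5 the highest, and from 8.28 to 8.49 in Vehicle. Counts of receptor genes past the threshold that use the LPS/HI injured group are therefore also given without its arrays 3 and 5. Marker results, counts of groups without overlap and the correlation between comparisons are given with all arrays only.

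Receptor genes of several families were lower in the injured hemisphere. Against Vehicle, 12 of 44 genes fell and 0 rose at an adjusted p under 0.05 (limma, Benjamini-Hochberg over all 19937 genes), which is 27.3% of them; over all genes 8.34% passed in either direction and 3.89% fell. The 12 were Glra2 (-0.51), Grm2 (-0.46), Grin3a (-0.45), Gabrb2 (-0.39), Grm3 (-0.36), Grm5 (-0.35), Grm7 (-0.34), Gabra2 (-0.33), Gabrg3 (-0.30), Gabra5 (-0.30), Grm8 (-0.30) and Grik2 (-0.26), as log2 fold changes of injured minus Vehicle. Over the 44 genes 34 lay below 0, or had a lower mean, against 54.5% of all genes, and their median was -0.11 against -0.01. In 12 genes every injured array lay below every Vehicle array, which held for 4.28% of all genes; 10 of these are among the 12 that fell, and the others are Grid1 and Grin2b. In a bulk sample fewer cells of a type and less RNA per cell cannot be told apart.

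**Figure D1:**
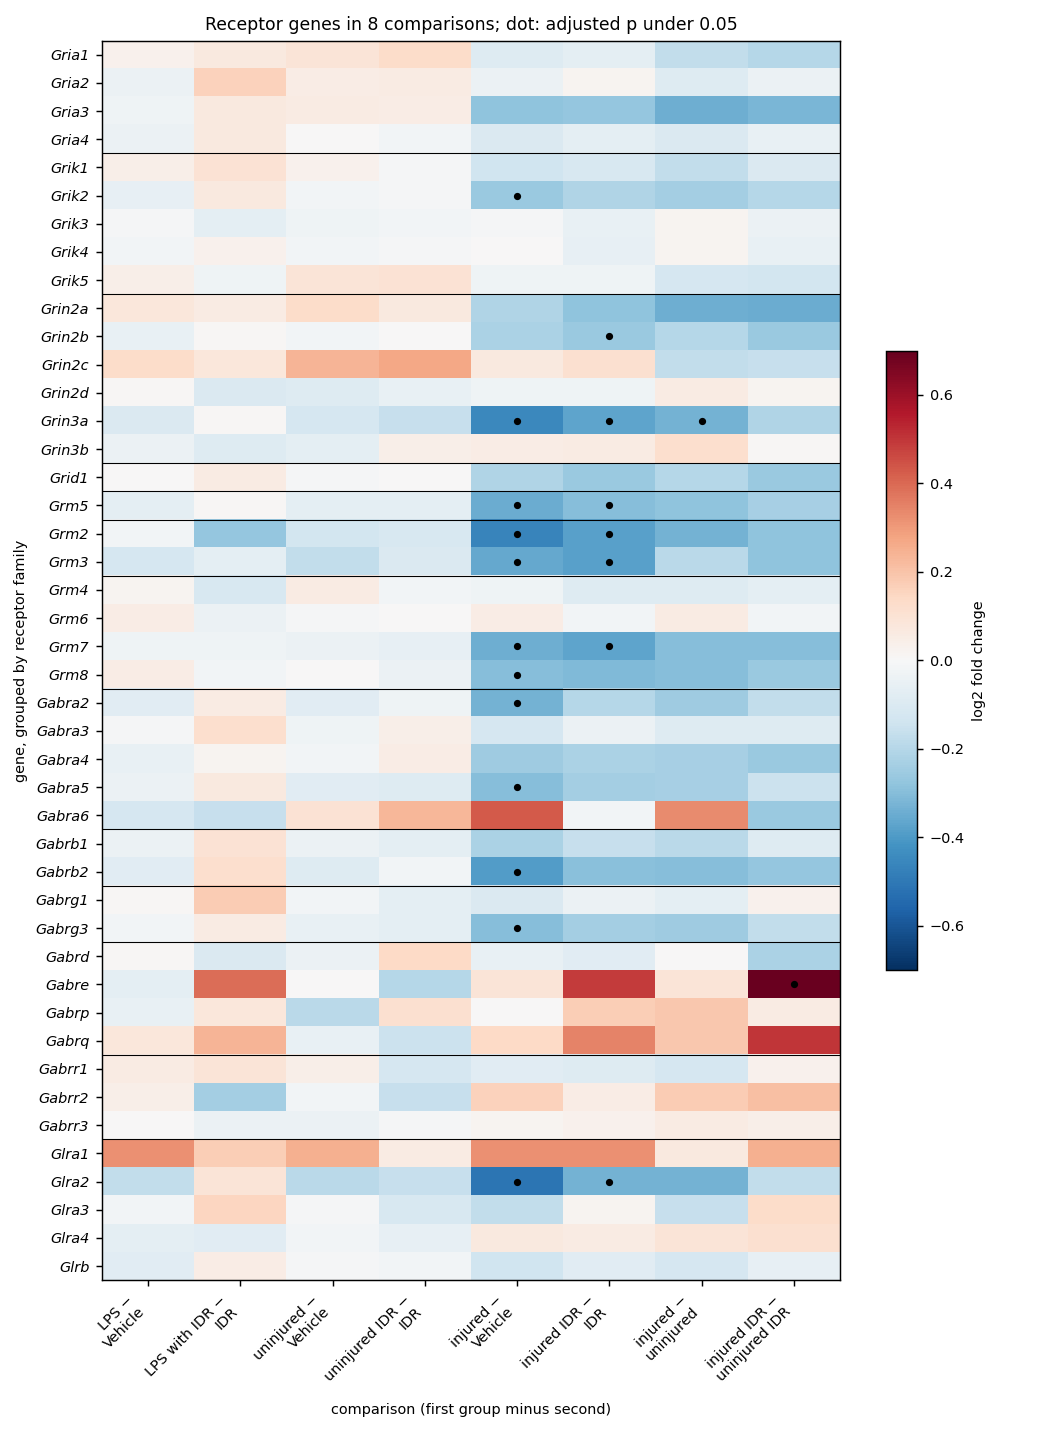
Log2 fold changes of the 44 receptor genes (rows, grouped by family) in 8 comparisons (columns, first group minus second); colour runs from blue (lower) to red (higher), and a dot marks an adjusted p under 0.05. The 4 columns for LPS and for the uninjured hemisphere hold no dot, and the column for injured minus Vehicle holds 12, all on blue cells.

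With the peptide the comparison was made on other arrays, LPS/HI IDR injured against IDR. There 7 of 44 genes fell and 0 rose, or 15.9%, while 5.87% of all genes passed in either direction and 2.35% fell. They were Grm3 (-0.38), Grm2 (-0.38), Grin3a (-0.37), Grm7 (-0.37), Glra2 (-0.33), Grm5 (-0.30) and Grin2b (-0.26). Below 0 lay 33 of 44 genes, against 52.3% of all genes, and in 4 genes every injured array lay below every IDR array, against 3.22% of all genes. Glra2, Grin3a, Grm2, Grm3, Grm5 and Grm7, or 6 of 44, fell in both comparisons, which share no array. Of all 19937 genes, 329 fell in both. Over the 44 genes, 31 were below 0 in both (70.5%, against 40.9% of all 19937 genes), and their fold changes correlated across genes at r = 0.83 (rho = 0.92), a description only, since genes are not independent replicates and all genes gave r = 0.85 (rho = 0.71). The second count rested on few arrays: it was between 1 and 4 without any single one of IDR numbers 1 (2 genes), 2 (4), 3 (1) or 4 (2), or of LPS/HI IDR injured numbers 1 (3), 3 (4) or 5 (4). With the level of Xist as a covariate (Xist alone on 3 of 5 injured and 1 of 5 IDR arrays) 5 of the 7 genes passed, Grm2 (-0.26, adjusted p = 0.0945) and Grin2b (-0.26, adjusted p = 0.0697) did not, and Gabrb2 (-0.41) was added. In that fit 4.52% of all genes passed. Grm3 passed in all 17 alternative settings of this comparison, Grm5 in 15, Grin3a in 13, Grm7 in 10, Grm2 in 7, and Glra2 and Grin2b in 6 each.

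**Figure D2:**
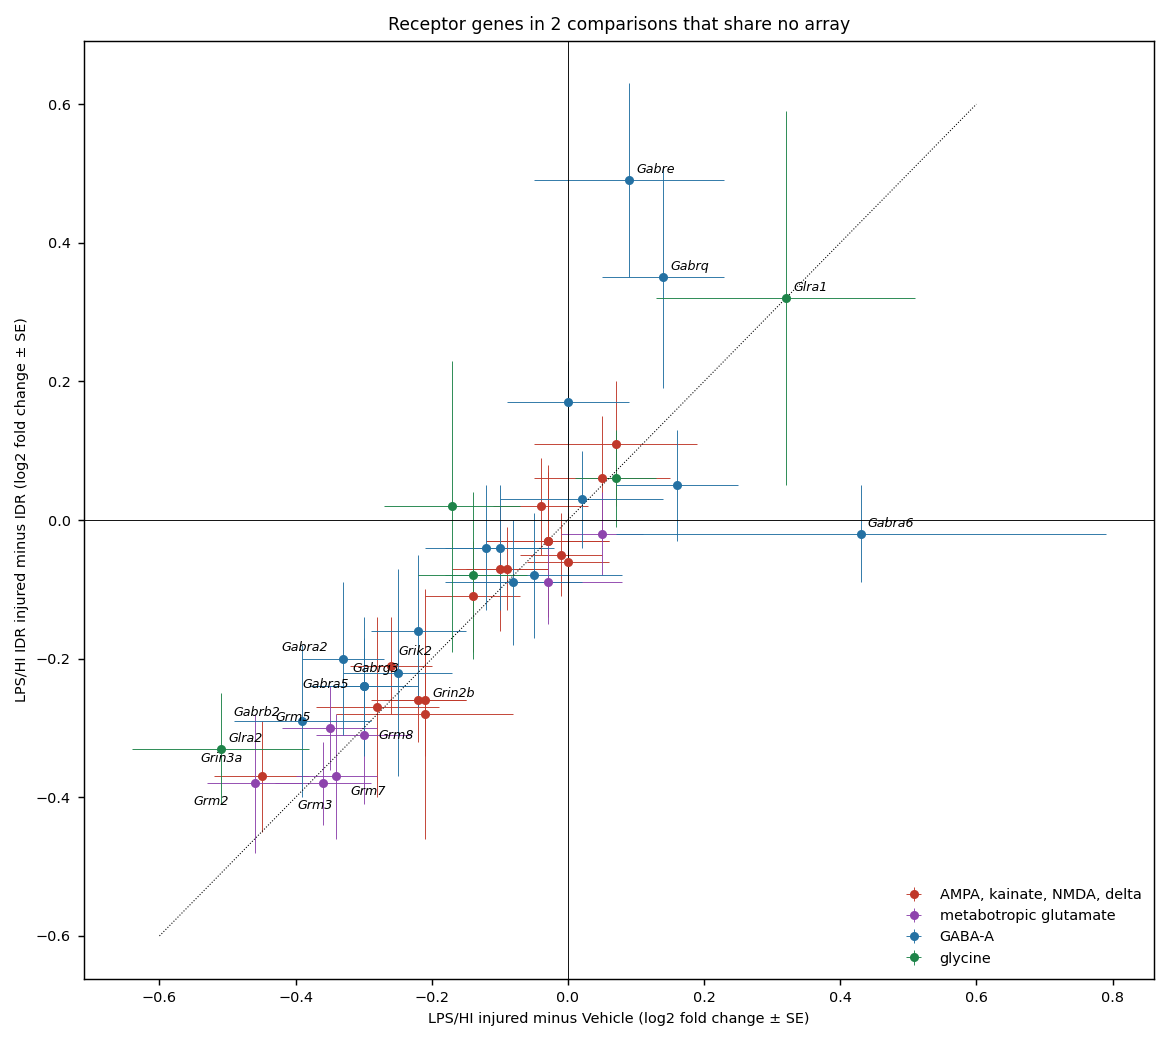
Log2 fold change of each receptor gene in the injured hemisphere against its control, without peptide (x axis) and with IDR-1018 (y axis); points are genes coloured by family, bars are standard errors and the dotted line marks equal change. Genes that fell lie at the lower left, from -0.51 for Glra2 on the x axis, while Gabre and Gabrq stand above the line at 0.49 and 0.35 on the y axis.

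Of the 7 metabotropic receptor genes 5 fell against Vehicle and, with peptide, 4 against IDR. Of the 16 ionotropic glutamate receptor genes 2 fell in each, where 3.89% and 2.35% of all genes fell. Between injured and uninjured hemispheres, with arrays not paired by number, 0 of the 7 passed in either arm. Of the 16 ionotropic genes 1 fell there without and 0 with peptide, where 0.813% and 0.702% of all genes fell. The difference between the families was not tested. Grm2, the group II receptor of presynaptic terminals, read 9.27, 9.35, 9.31, 9.28 and 9.43 on the 5 Vehicle arrays and 8.75, 8.87, 9.00, 8.78 and 8.93 on the 5 injured arrays. The groups did not overlap, and the log2 fold change was -0.46 ± 0.07 (SE; adjusted p = 0.000564), a 1.38-fold lower signal. With peptide it read 9.26, 9.23, 9.28, 9.37 and 9.44 in IDR and 8.76, 8.68, 9.12, 9.21 and 8.88 in the injured hemisphere. Injured numbers 3 and 4 were the highest of the injured arrays but stayed below every IDR array, and the change was -0.38 ± 0.10 (SE; adjusted p = 0.0365).

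Grm3, the other group II receptor, which astrocytes also express, read 11.93, 12.01, 12.05, 11.98 and 11.82 in Vehicle and 11.53, 11.54, 11.70, 11.75 and 11.47 in injured hemispheres. It read 11.99, 11.88, 11.96, 12.01 and 11.97 in IDR and 11.63, 11.51, 11.52, 11.73 and 11.52 in injured hemispheres with peptide. All 10 injured arrays lay below all 10 control arrays, and the changes were -0.36 ± 0.07 (SE; adjusted p = 0.00677) and -0.38 ± 0.06 (SE; adjusted p = 0.00305). Grm5, the group I receptor measured here, read 11.96, 11.90, 12, 11.91 and 11.74 in Vehicle and 11.60, 11.64, 11.40, 11.67 and 11.45 in injured hemispheres. With peptide it read 11.94, 11.86, 11.96, 12.01 and 11.77 in IDR and 11.60, 11.58, 11.57, 11.55 and 11.75 in injured hemispheres. Neither comparison overlapped, with changes of -0.35 ± 0.07 (SE; adjusted p = 0.0086) and -0.30 ± 0.06 (SE; adjusted p = 0.0168), and the closest approach was between injured number 5 with peptide and IDR number 5.

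Of the group III receptors, which act as presynaptic brakes, Grm7 read 10.17, 10.19, 10.17, 10.15 and 10.13 in Vehicle, a narrow range, and 9.88, 9.82, 9.71, 9.91 and 9.79 in injured hemispheres. It read 10.30, 10.10, 10.31, 10.32 and 10.01 in IDR and 9.77, 9.98, 9.68, 9.73 and 10.04 in injured hemispheres with peptide. The first comparison did not overlap (-0.34 ± 0.06 SE, adjusted p = 0.00212), whereas in the second injured number 5 lay above IDR number 5 (-0.37 ± 0.09 SE, adjusted p = 0.029). Grm8 read 8.50, 8.63, 8.44, 8.50 and 8.54 in Vehicle and 8.38, 8.26, 8.11, 8.22 and 8.14 in injured hemispheres, again without overlap (-0.30 ± 0.07 SE, adjusted p = 0.0121). With peptide Grm8 read 8.63, 8.39, 8.76, 8.67 and 8.36 in IDR and 8.18, 8.40, 8.04, 8.16 and 8.49 in injured hemispheres, the groups overlapped, and a change of -0.31 ± 0.10 (SE; adjusted p = 0.107) did not pass. Grm4 and Grm6, the receptor of retinal ON bipolar cells, were near 0 in both comparisons, between -0.09 and 0.05.

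Among NMDA receptor genes, Grin3a had the lowest fold change against each control. It encodes a subunit that lowers calcium entry and is abundant in the early postnatal brain. It read 10.64, 10.71, 10.63, 10.69 and 10.46 in Vehicle and 10.22, 10.24, 10.17, 10.24 and 9.98 in injured hemispheres, and 10.67, 10.63, 10.73, 10.81 and 10.32 in IDR and 10.34, 10.18, 10.19, 10.25 and 10.32 in injured hemispheres with peptide. Every injured array lay below every Vehicle array (-0.45 ± 0.07 SE, adjusted p = 0.00132), and with peptide IDR number 5 alone lay in the range of the injured arrays (-0.37 ± 0.08 SE, adjusted p = 0.0213). Grin2b, the subunit that dominates at birth, read 11.57, 11.56, 11.64, 11.44 and 11.42 in Vehicle and 11.29, 11.37, 11.28, 11.39 and 11.20 in injured hemispheres, which did not overlap, although -0.22 ± 0.07 (SE; adjusted p = 0.0531) did not pass. With peptide it read 11.53, 11.49, 11.65, 11.69 and 11.45 in IDR and 11.31, 11.34, 11.18, 11.32 and 11.36 in injured hemispheres, without overlap, and fell by 0.26 on the log2 scale (adjusted p = 0.034). Grin2a, which replaces Grin2b in part as the brain matures, was at -0.21 ± 0.13 (SE; adjusted p = 0.389) and -0.28 ± 0.18 (SE; adjusted p = 0.441), with a wide spread between arrays. Grin2c, Grin2d and Grin3b lay between -0.03 and 0.11 in both comparisons and did not pass.

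The AMPA receptor genes did not pass in either comparison. Gria1, Gria2 and Gria4 were at -0.09, -0.04 and -0.10 without and at -0.07, 0.02 and -0.07 with peptide, whereas Gria3 was at -0.28 ± 0.09 (SE; adjusted p = 0.0605) and -0.27 ± 0.13 (SE; adjusted p = 0.268). Of the 5 kainate receptor genes Grik2, which encodes the GluK2 channel subunit, fell. It read 10.34, 10.33, 10.32, 10.38 and 10.34 in Vehicle and 10.16, 10.08, 10.11, 10.11 and 9.95 in injured hemispheres, without overlap (-0.26 ± 0.06 SE, adjusted p = 0.0119). With peptide it read 10.48, 10.24, 10.51, 10.45 and 10.21 in IDR and 10.13, 10.21, 10.06, 10.18 and 10.24 in injured hemispheres, where injured number 5 lay above IDR number 5, and -0.21 ± 0.07 (SE; adjusted p = 0.114) did not pass. The other 4 kainate genes lay between -0.14 and 0.00 in both comparisons. Grid1, the delta receptor that links pre- and postsynaptic membranes, was at -0.21 ± 0.06 (SE; adjusted p = 0.0515) and -0.26 ± 0.08 (SE; adjusted p = 0.0701).

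Of the 16 GABA-A receptor genes 4 fell without peptide and 0 with peptide; whether these counts differ was not tested. Gabra2 and Gabra5 encode alpha subunits, of which alpha 5 sits largely outside synapses, and Gabrb2 and Gabrg3 encode a beta and a gamma subunit. Gabrg3 read 11.10, 10.97, 11.14, 10.96 and 11.02 in Vehicle and 10.86, 10.81, 10.60, 10.85 and 10.59 in injured hemispheres, with no overlap (-0.30 ± 0.07 SE, adjusted p = 0.0219). With peptide it read 11.13, 11.03, 11.16, 11.05 and 10.80 in IDR and 10.83, 10.95, 10.56, 10.64 and 10.99 in injured hemispheres, overlapping (-0.24 ± 0.10 SE, adjusted p = 0.181). Gabra2 was at -0.33 ± 0.06 (SE; adjusted p = 0.00552) and -0.20 ± 0.11 (SE; adjusted p = 0.352), and Gabra5 at -0.30 ± 0.08 (SE; adjusted p = 0.0261) and -0.24 ± 0.07 (SE; adjusted p = 0.0535). Gabrb2, the 1 gene with several probe sets, was at -0.39 ± 0.10 (SE; adjusted p = 0.0341) and -0.29 ± 0.11 (SE; adjusted p = 0.154); its other probe sets gave -0.24 and -0.22 against Vehicle. Gabra4 (-0.25 and -0.22) and Gabrb1 (-0.22 and -0.16) had the same sign but did not pass. The subunits Gabra3, Gabrg1 and Gabrd and the 3 rho genes Gabrr1, Gabrr2 and Gabrr3, known from retina, lay between -0.12 and 0.16 in both comparisons, and Gabrp was at 0.00 and 0.17; none of these passed.

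Genes that lie together did not all have the same values. In RefSeq, Gabrg1, Gabra2, Gabra4 and Gabrb1 are neighbours on chromosome 5 with 1 other protein-coding gene among them, and against Vehicle they were at -0.10, -0.33, -0.25 and -0.22. Gabrg3 and Gabra5, adjacent on chromosome 7, were both at -0.30. On chromosome 11, Gabra6 and Gabrb2 are adjacent and were at 0.43 and -0.39. On the X chromosome Gabre, Gabra3 and Gabrq were at 0.09, -0.12 and 0.14 without and at 0.49, -0.04 and 0.35 with peptide. The Gabra6 value came from 1 array. This subunit of cerebellar granule cells read 4.75, 4.91, 4.76, 4.60 and 7.09 on the injured arrays, so number 5, the array with the high cerebellar markers, stood alone. It read 4.75, 5.12, 4.47, 4.54 and 5.57 on the uninjured arrays and 4.64, 5.20, 4.70, 4.63 and 5.78 on those with peptide, where numbers 2 and 5 were the highest. Gabra6 was singled out after its values were seen, and the part of cerebellar tissue in other values was not tested.

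Of the 5 glycine receptor genes, Glra2 fell in both comparisons. It encodes the alpha subunit that prevails in the developing nervous system before Glra1 takes over in spinal cord and brainstem. Glra2 read 10.89, 10.71, 11.07, 11.06 and 10.40 in Vehicle and 10.30, 10.41, 10.37, 10.55 and 9.94 in injured hemispheres, and 10.77, 10.80, 10.65, 10.87 and 10.42 in IDR and 10.46, 10.43, 10.31, 10.28 and 10.42 in injured hemispheres with peptide. Number 5 was the lowest array of Vehicle, of IDR and of the injured group without peptide, so both comparisons overlapped. The changes were -0.51 ± 0.13 (SE; adjusted p = 0.0272), a 1.43-fold lower signal, and -0.33 ± 0.08 (SE; adjusted p = 0.036). Glra2 passed in 11 of 18 alternative settings against Vehicle and in 6 of 17 against IDR. Glra1 was at 0.32 ± 0.19 (SE; adjusted p = 0.362) and 0.32 ± 0.27 (SE; adjusted p = 0.606), and Glra3, Glra4 and Glrb, the beta subunit that anchors the receptor to gephyrin, did not pass either. Low signal limits the reading of Gabra6, Gabrp, Gabrr3 and Glra4, whose means over all arrays were under 6.

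**Figure D3:**
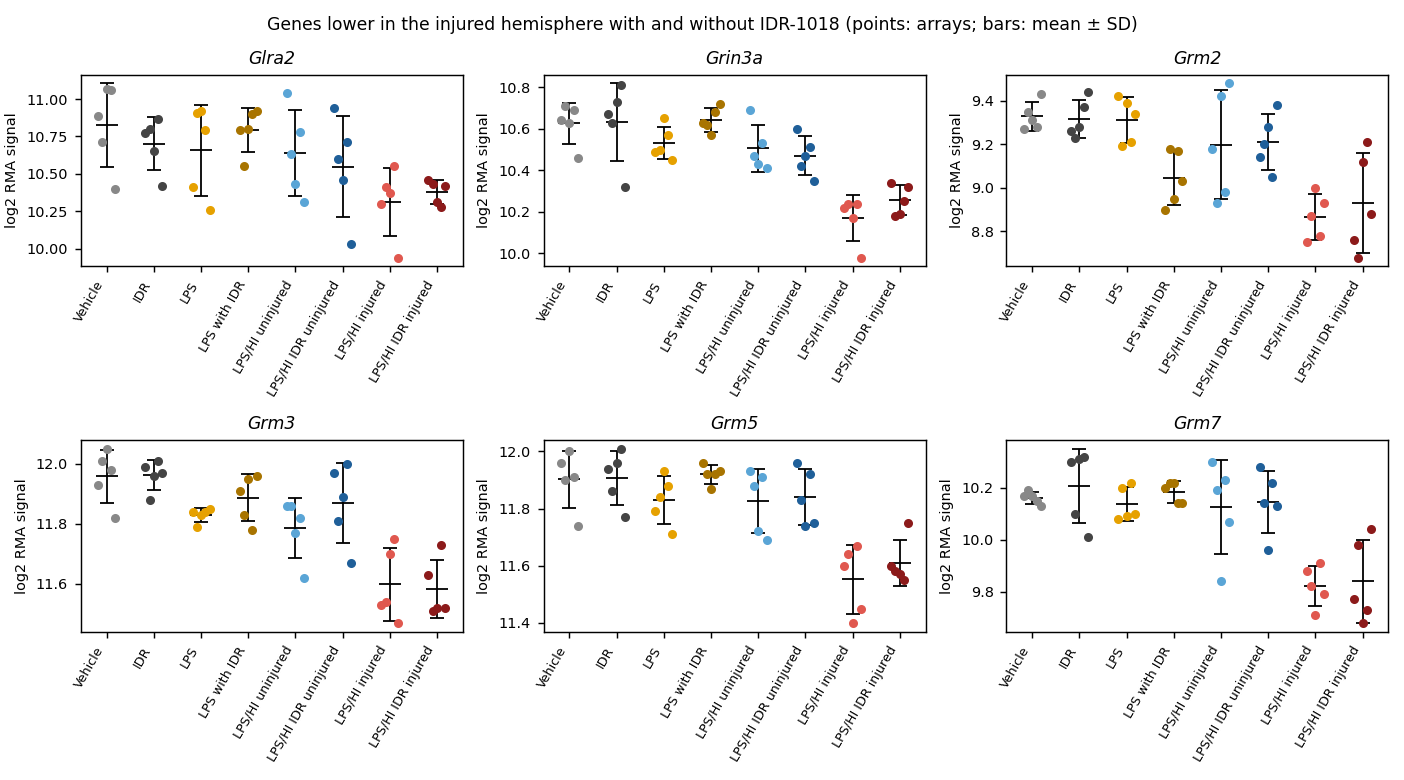
Log2 RMA signal (y axis) of the 6 genes that fell in both comparisons, on every array of the 8 groups (x axis); points are arrays and bars are the mean ± SD of 5 arrays. The injured groups are the lowest in each panel, as for Grm3 at 11.60 and 11.58 against 11.96 in both Vehicle and IDR.

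The promoters of these 6 genes were looked up because each gene fell in both comparisons, and 4 of the 6 had an entry. RefSeq (GRCm38.p6) entries were used for Glra2 (chrX:165327344-165327643, minus strand), Grm2 (chr9:106656060-106656359, minus strand), Grm3 (chr5:9725303-9725602, minus strand) and Grm7 (chr6:110645262-110645561, plus strand, the first of 2 starts). Each run covers 250 bases before to 50 after the start, 5′ to 3′, with matches on either strand to the Sp1 box GGGCGG or the TATA box TATAAA in capitals.
Glra2: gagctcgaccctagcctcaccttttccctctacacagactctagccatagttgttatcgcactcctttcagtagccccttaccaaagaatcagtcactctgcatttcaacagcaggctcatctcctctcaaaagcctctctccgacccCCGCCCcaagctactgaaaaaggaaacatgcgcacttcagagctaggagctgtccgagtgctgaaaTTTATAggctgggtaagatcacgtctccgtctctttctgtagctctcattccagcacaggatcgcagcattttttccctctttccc
Grm2: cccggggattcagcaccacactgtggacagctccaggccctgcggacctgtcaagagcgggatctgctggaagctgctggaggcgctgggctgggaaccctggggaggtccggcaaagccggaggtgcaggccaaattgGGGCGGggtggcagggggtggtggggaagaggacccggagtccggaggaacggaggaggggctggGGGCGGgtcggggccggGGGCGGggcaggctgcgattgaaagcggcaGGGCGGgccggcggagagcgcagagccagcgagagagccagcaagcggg
Grm3: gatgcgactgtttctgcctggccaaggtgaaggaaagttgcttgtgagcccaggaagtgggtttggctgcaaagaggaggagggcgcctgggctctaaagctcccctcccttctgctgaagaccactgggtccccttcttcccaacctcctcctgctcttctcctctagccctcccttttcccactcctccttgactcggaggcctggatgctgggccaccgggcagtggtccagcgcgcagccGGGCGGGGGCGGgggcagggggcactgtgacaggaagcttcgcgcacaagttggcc
Grm7: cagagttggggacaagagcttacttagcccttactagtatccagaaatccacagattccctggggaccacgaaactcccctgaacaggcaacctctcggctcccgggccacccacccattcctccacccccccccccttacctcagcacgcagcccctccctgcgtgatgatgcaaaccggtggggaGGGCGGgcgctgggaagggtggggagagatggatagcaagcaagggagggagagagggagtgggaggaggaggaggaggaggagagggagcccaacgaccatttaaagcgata
All 4 hold GGGCGG, with 1 match in Glra2, 4 in Grm2, 2 in Grm3 and 1 in Grm7; it is found in 18 of the 33 member promoters in the table and in 35.7% of all 32851 promoters. TATAAA occurs in Glra2 alone of the 4, in 4 of the 33 and in 13.6% of all. The CRE core TGACG, which the calcium-responsive factor CREB can bind, is in none of the 4 windows, in 4 of the 33 and in 20.8% of all. The letters of an AP-1 site (TGANTCA) and of an E-box of NeuroD factors (CAGATG) are also in none of the 4, with shares of 7.81% and 17.2% over all promoters. The GC content of the 4 windows was 50.3%, 72.0%, 63.7% and 61.0% in the order shown, against a median of 52.7%. A match is a run of letters and no evidence of binding.

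Within the LPS/HI brains the injured hemisphere could be set against the uninjured one, which was taken after the same LPS and HI at the same time. Without peptide 1 of 44 genes (2.27%) passed, Grin3a, which fell; over all genes 2.99% passed and 0.813% fell. Grin3a read 10.69, 10.47, 10.43, 10.53 and 10.41 on uninjured and 10.22, 10.24, 10.17, 10.24 and 9.98 on injured hemispheres. The groups did not overlap, and the change was -0.33 ± 0.08 (SE; adjusted p = 0.029). In 3 of 44 genes (Grin3a, Grm5 and Gria1) the injured arrays all lay below the uninjured ones, against 1.61% of all genes. The median over the 44 genes was -0.14, against 0.01 over all genes. The call on Grin3a was lost without any single one of injured numbers 1, 2 or 5 or uninjured numbers 1, 2 or 4 (adjusted p between 0.0571 and 0.0778), and without both injured numbers 3 and 5 (-0.27, adjusted p = 0.101), while leaving out uninjured number 3 gave 4 genes (Grin3a, Gria3, Grm7 and Grm8).

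The arrays of these hemispheres were also compared by their number in the labels, since those of the same number deviated from their group means together in all 5 numbers. The labels do not tie a number to a pup. Arrays of LPS/HI injured and Vehicle, which were different pups, also deviated together in all 5 numbers (correlations from 0.116 to 0.443). Agreement by number therefore does not show that 2 arrays came from 1 pup. Number 3 had Y-linked signal in the injured array (8.01) and not in the uninjured one (4.27) and did not correlate best with its own number, so it is not shown to be 1 pup, while the other 4 numbers had the same sex-linked signal on both sides. With the number as a block, 16 of 44 genes fell and 0 rose, while 10.2% of all genes passed and 3.89% fell. The smallest adjusted p belonged to Gria3 (-0.34 ± 0.05 SE, adjusted p = 0.00383), whose differences between the hemispheres of numbers 1 to 5 were -0.45, -0.35, -0.27, -0.32 and -0.29. Grin2a changed by -0.34 ± 0.05 (SE; adjusted p = 0.0042), with differences of -0.30, -0.35, -0.23, -0.44 and -0.36. The level of Grin2a varied by number, and every injured array lay below the uninjured array of its number although the groups overlapped: uninjured arrays read 10.44, 10.56, 9.74, 10.59 and 10.28 and injured ones 10.14, 10.21, 9.50, 10.15 and 9.92. Grm8 followed with -0.30 ± 0.05 (SE; adjusted p = 0.00595) and differences of -0.27, -0.34, -0.23, -0.29 and -0.36. The remaining genes that fell with the block were Grin3a, Grm5, Grm7, Gabrg3, Gabrb2, Grm2, Grik2, Gabra2, Grid1, Gabra5, Glra2, Gabra4 and Grin2b, between -0.33 and -0.20 with adjusted p from 0.00639 to 0.049. Without injured numbers 3 and 5 the block rested on 3 pairs and gave 7 of 44 genes, all lower (5.29% of all genes passed): Gria3 (-0.38), Grin2a (-0.37), Grm7 (-0.37), Gabra2 (-0.33), Grin3a (-0.33), Grik2 (-0.32) and Grm8 (-0.30). Grm3, which fell against Vehicle, was at -0.19 ± 0.06 (SE; adjusted p = 0.0767) between hemispheres. In 19 of 44 genes all 5 injured arrays lay below the uninjured array of the same number, against 10.1% of all genes, and in 2, Gabrp and Gabrq, all 5 lay above, against 13.7%.

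**Figure D4:**
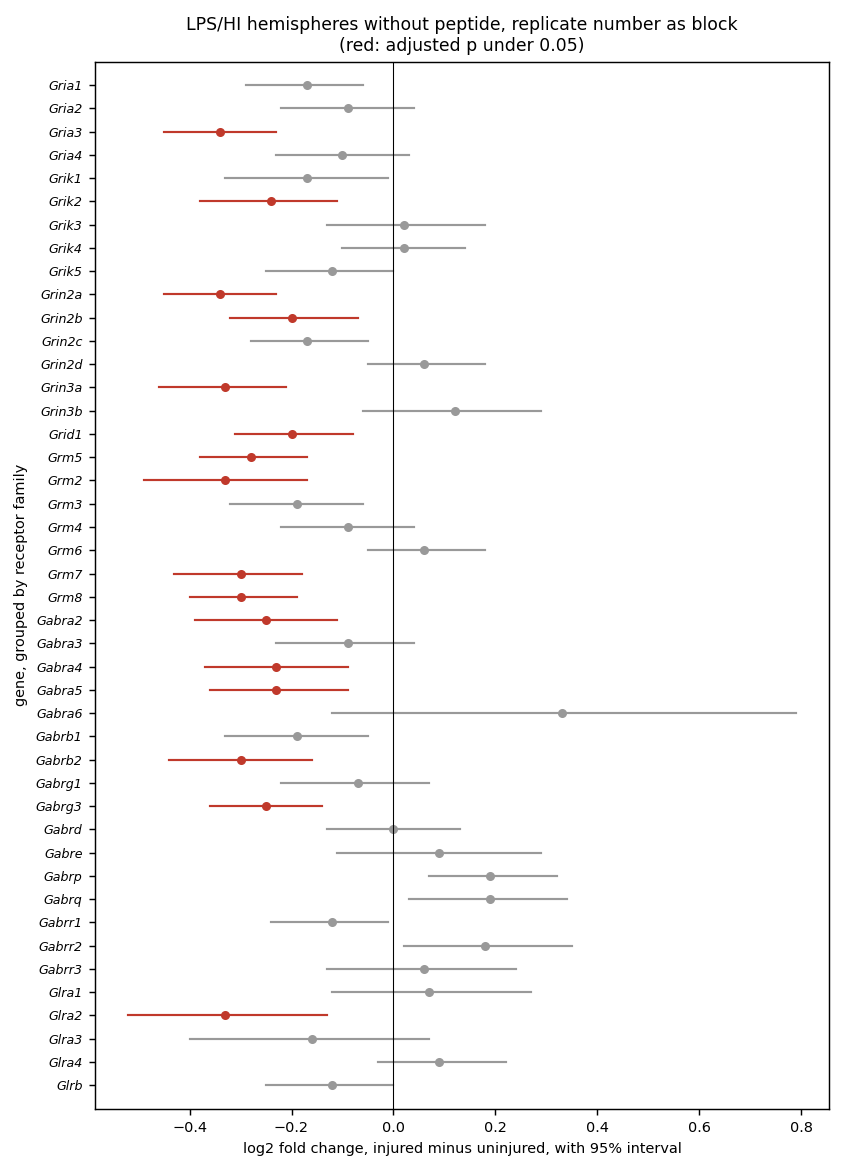
Log2 fold change of each receptor gene, injured minus uninjured hemisphere without peptide, with the number of the array as a block; points are estimates, bars 95% intervals, and red marks an adjusted p under 0.05. The 16 red genes all lie left of 0, with Gria3 and Grin2a at -0.34, and Gabra6 has the widest interval.

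With peptide Gabre was the receptor gene that passed between injured and uninjured hemispheres in the fit without the number as a block. Gabre, the epsilon subunit of GABA-A receptors, rose and was the only 1 of 44 genes (2.27%) to pass in that fit, while 2.5% of all genes passed and 1.8% rose. The result with the block stands with the other alternatives below. It read 6.66, 6.97, 6.26, 6.52 and 6.38 on uninjured and 7.19, 7.21, 7.24, 6.92 and 7.69 on injured hemispheres. Uninjured number 2 lay above injured number 4, so the groups overlapped, and the change was 0.69 ± 0.14 (SE; adjusted p = 0.0248), a 1.61-fold higher signal. Gabrq, the theta subunit, whose gene lies in the same X-linked cluster, read 8.13, 8.27, 8.02, 8.13 and 7.97 on uninjured and 8.65, 8.72, 8.34, 8.22 and 9.09 on injured hemispheres, and its change of 0.50 ± 0.14 (SE; adjusted p = 0.0735) did not pass. Grin2b (-0.26 ± 0.07 SE, adjusted p = 0.0562) was lower without overlap, as were Grid1, Gria1 and Grin3a, which makes 4 of 44 genes against 1.94% of all. None of the 4 passed in the fit without the block. The call on Gabre was lost without any single one of LPS/HI IDR injured numbers 1 or 5 or LPS/HI IDR uninjured numbers 1, 3, 4 or 5 (adjusted p between 0.0511 and 0.0650). With the level of Xist as a covariate 10 of 44 genes passed (5.43% of all genes): Gabre (0.69) and Gabrq (0.49) were higher, and Grin2a (-0.36), Gria3 (-0.33), Grm7 (-0.31), Grm3 (-0.28), Gabrb2 (-0.27), Gabra4 (-0.27), Grid1 (-0.26) and Grin2b (-0.26) were lower.

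**Figure D5:**
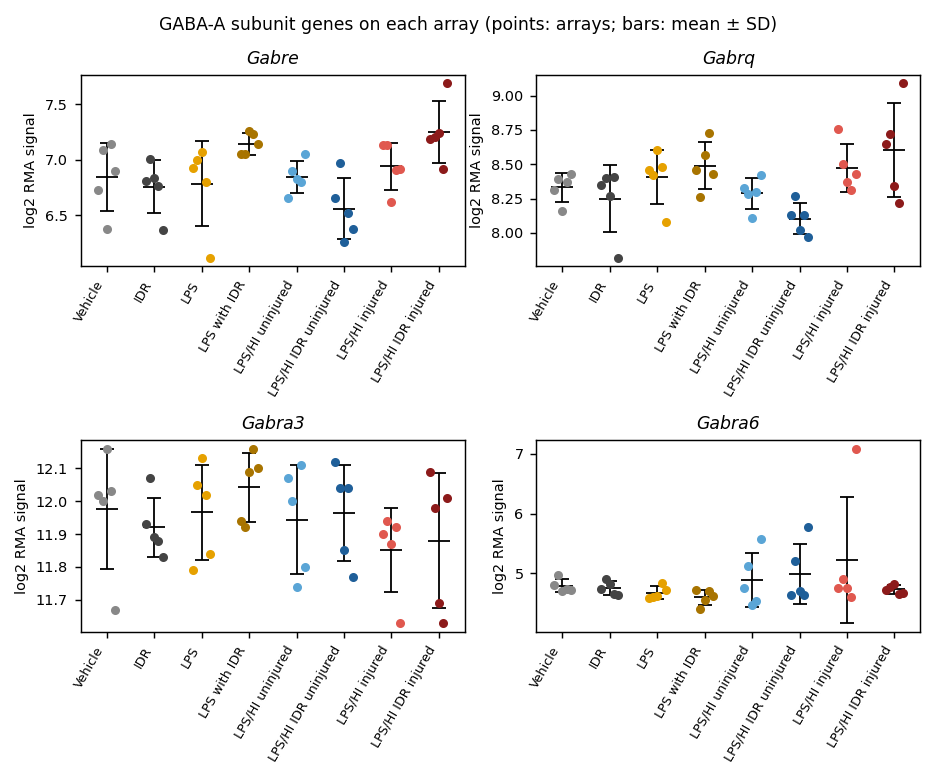
Log2 RMA signal (y axis) of Gabre, Gabrq, Gabra3 and Gabra6 on every array of the 8 groups (x axis); points are arrays and bars are the mean ± SD of 5 arrays. Gabre is lowest in the uninjured (6.56) and highest in the injured hemisphere with peptide (7.25), and 1 injured array without peptide stands at 7.09 for Gabra6.

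Without peptide Gabre was at 0.09 ± 0.10 (SE; adjusted p = 0.773) between hemispheres. Its differences by number were 0.47, 0.23, -0.21, 0.10 and -0.13. Without injured numbers 3 and 5 and with the number as a block, Gabre was at 0.27 ± 0.08 (SE; adjusted p = 0.107 in limma) and did not pass. With all arrays and no block, the difference of the 2 hemisphere differences of Gabre was 0.60 ± 0.19 (SE; adjusted p = 1), the smallest p of the 44 genes, and did not pass. No receptor gene passed in this interaction (1 of 44 at an unadjusted p under 0.05, against 1.81% of all genes; 0% of all genes passed after adjustment). Injured hemispheres with and without peptide gave 0 of 44 receptor genes and 0% of all genes past the threshold, with 1 of 44 at an unadjusted p under 0.05 (1.39% of all genes). For the 6 genes that fell in both comparisons the peptide difference and its 95% interval were 0.07 (-0.15 to 0.28) for Grm2, -0.01 (-0.17 to 0.15) for Grm3, 0.06 (-0.10 to 0.21) for Grm5, 0.02 (-0.16 to 0.19) for Grm7, 0.09 (-0.06 to 0.24) for Grin3a and 0.07 (-0.15 to 0.28) for Glra2. These intervals bound the size of a peptide effect and do not show that there was none. Gabre, at 0.31 (adjusted p = 1), and Gabra6, at -0.49 with array 5 of the injured group, had the smallest p. Without injured arrays 3 and 5 the count stayed at 0 for this comparison and for the interaction.

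LPS alone moved no receptor gene past the threshold. Against Vehicle 0 of 44 passed in limma (0.833% of all genes), and 2 of 44 had an unadjusted p under 0.05 (6.22% of all genes). These were Glra1 at 0.32 ± 0.12 (SE; adjusted p = 0.52) and Grm3 at -0.12 ± 0.06 (SE; adjusted p = 0.781). The ionotropic glutamate genes lay between -0.10 and 0.13, the metabotropic ones between -0.12 and 0.05, the GABA-A genes between -0.12 and 0.08 and the glycine receptor genes between -0.17 and 0.32. All 5 LPS arrays had Xist without Y-linked signal, and with the level of Xist as a covariate the count stayed at 0.

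In mice given peptide, LPS against IDR gave 0 of 44 (1.47% of all genes), and 5 of 44 at an unadjusted p under 0.05 (10.5% of all genes). Grm2 read 8.90, 9.18, 8.95, 9.17 and 9.03 with LPS, below every IDR array, at -0.27 ± 0.07 (SE; adjusted p = 0.0865). Gabre read 7.05, 7.05, 7.26, 7.23 and 7.14 with LPS against 6.81, 7.01, 6.84, 6.76 and 6.37 in IDR, above every IDR array, at 0.39 ± 0.10 (SE; adjusted p = 0.0911). These were the 2 of 44 genes whose groups did not overlap, against 3.42% of all genes, and neither passed. The ionotropic glutamate genes lay between -0.10 and 0.16, the metabotropic ones between -0.27 and 0.01, the GABA-A genes between -0.24 and 0.39 and the glycine receptor genes between -0.08 and 0.17.

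The uninjured hemisphere, also taken after LPS and HI, gave 0 of 44 genes: 0.436% of all genes passed against Vehicle, and 0.201% with peptide against IDR. At an unadjusted p under 0.05 there were 2 of 44 in each (6.58% and 5.28% of all genes). These were Grm3 at -0.17 ± 0.07 (SE; adjusted p = 0.634) and Gabrp, the pi subunit, at -0.19 ± 0.08 (SE; adjusted p = 0.666) without peptide, and Grin2c, a subunit of cerebellar and astrocytic NMDA receptors, at 0.27 ± 0.12 (SE; adjusted p = 0.91) and the rho subunit gene Gabrr2 at -0.16 ± 0.08 (SE; adjusted p = 0.92) with peptide. Against Vehicle the ionotropic glutamate genes lay between -0.12 and 0.24, the metabotropic ones between -0.17 and 0.06, the GABA-A genes between -0.19 and 0.10 and the glycine receptor genes between -0.19 and 0.25. Against IDR the same 4 sets lay between -0.16 and 0.27, -0.11 and 0.00, -0.20 and 0.23, and -0.16 and 0.06.

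No receptor gene passed the threshold for the peptide. IDR against Vehicle gave 0 of 44 genes and 0% of all genes, with 0 of 44 at an unadjusted p under 0.05 (1.61% of all genes), and the fold changes lay between -0.16 for Gabrp and 0.11; Gabrp (adjusted p = 0.9998) and Grm6 (0.08) had the smallest p. Peptide before LPS gave 0 of 44 (0% of all genes), with 7 of 44 at an unadjusted p under 0.05 (13.4% of all genes), led by Grm2 at -0.27 ± 0.07 (SE; adjusted p = 0.326) and Gabrr2 at -0.20 ± 0.07 (SE; adjusted p = 0.326). In uninjured hemispheres the counts were 0 of 44 (0% of all genes) and 3 of 44 (1.89% of all genes), led by Gabre at -0.29 and Gabrq at -0.18 with an adjusted p of 1 for each. In the interaction of peptide and LPS 0 of 44 passed (0.00502% of all genes), with 3 of 44 at an unadjusted p under 0.05 (4.38% of all genes), led by Gabrr2 at -0.28 ± 0.10 (SE; adjusted p = 0.86) and Grm2 at -0.25 ± 0.09 (SE; adjusted p = 0.86). The LPS with IDR and LPS groups also differed in sex-linked transcripts, with Xist alone on 2 of 5 and 5 of 5 arrays, and with the level of Xist as a covariate the count stayed at 0.

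Genes that work beside the receptors were read from 6 lists, whose counts stand beside the shares of all genes that fell: 3.89% against Vehicle, 2.35% against IDR, and 0.813% and 0.702% between hemispheres without and with peptide. Of 17 auxiliary subunits of ionotropic glutamate receptors 3 fell and 0 rose against Vehicle (Shisa6, Cnih3 at -0.38 and Neto1 at -0.27) and 2 fell with peptide (Shisa6, and Cnih3 at -0.31). Shisa6, which binds AMPA receptors, was at -0.40, -0.42, -0.44 and -0.48 in the 4 injury comparisons (Vehicle, IDR, and uninjured hemisphere without and with peptide; adjusted p from 0.00432 to 0.0157). Of 21 excitatory scaffold genes 2 fell against Vehicle, the adhesion protein gene Nlgn1 (-0.35) and the AMPA receptor adaptor gene Grip1 (-0.29), and Grip1 fell against IDR (-0.26). Of 11 inhibitory scaffold genes 1 fell in each of the 4, Slitrk3, an adhesion protein of inhibitory synapses, at -0.33, -0.34, -0.37 and -0.36. Of 14 genes of glutamate uptake, release and metabolism 2 fell against Vehicle, the vesicular transporter gene Slc17a8 (-0.28) and the serine racemase gene Srr (-0.25), and Slc17a8 fell against IDR (-0.42). Of 13 genes of GABA and glycine synthesis, transport and GABA-B receptors 1 fell against Vehicle, the GABA transporter gene Slc6a13 (-0.54 ± 0.08, SE; adjusted p = 0.000636), which was also lower than in the uninjured hemisphere (-0.52 ± 0.10, SE; adjusted p = 0.0116). With peptide 0 of the 13 passed, either against IDR or between hemispheres. Of 8 chloride cotransport genes 0 passed in any of the 4. None of these lists had a gene past the threshold in LPS against Vehicle. With the number as a block, the hemispheres without peptide gave 3, 3, 2, 1, 1 and 0 lower genes in the 6 lists, in the order given here, where 3.89% of all genes fell. Without injured arrays 3 and 5 the auxiliary subunits had 1 gene and the inhibitory scaffold 0 against Vehicle.

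Some markers of cortical excitatory neurons fell in the comparisons where receptor genes fell. Over all genes 3.89% fell against Vehicle and 2.35% against IDR, and 8.34% and 5.87% passed in either direction. The mean of 10 general neuron markers was between 11.33 and 11.42 in LPS/HI injured and between 11.32 and 11.35 in LPS/HI IDR injured hemispheres, against 11.47 to 11.52 in Vehicle and 11.43 to 11.49 in IDR, and of the 10 Tubb3 (-0.47) and Elavl2 (-0.30) fell against Vehicle and 0 against IDR. Of 9 markers of cortical excitatory neurons 4 fell in each comparison with a control: Neurod6 (-0.86 and -0.75), Fezf2 (-0.45 and -0.41), Rorb (-0.44 and -0.32) and Bcl11b (-0.25 and -0.34). None of the 9 rose past the threshold, but 2 lay above 0 against Vehicle and 1 against IDR. Slc17a7 was at -0.15 and -0.11 and did not pass. Between hemispheres 2 of the 9 fell without and 3 with peptide, Neurod6 and Fezf2 in each and Rorb with peptide. Over all genes 0.813% and 0.702% fell, and 2.99% and 2.5% passed in either direction. All 8 striatal markers lay below 0 in both arms: Gpr6 (-0.44) fell without peptide, and Gpr6 (-0.57), Pde10a (-0.44) and Penk (-0.37) fell with it. In the other lists, Fgfr3 (-0.44), P2ry12 (-0.45), Pdgfra (-0.35), Ntng1 (-0.47) and Etv1 (-0.39) fell and Pecam1 (0.39) rose without peptide. With peptide Etv1 (-0.34) and Neurod1 (-0.53) fell and Pecam1 (0.46) and Cdh5 (0.36) rose. With the number as a block, 6 of the 9 cortical, 3 of the 10 general neuron, 4 of the 8 striatal and 0 of the 10 interneuron markers fell between hemispheres without peptide, where 3.89% of all genes fell. With this block 3 of 12 cerebellar, 2 of 9 oligodendrocyte lineage and 2 of 9 microglial markers fell as well. So did 1 of 8 thalamic, 1 of 10 astrocyte, 1 of 8 endothelial, 1 of 6 choroid plexus and 0 of 11 hindbrain markers. In the cerebellar, astrocyte, microglial and endothelial lists 1 marker each rose. The mean of the 9 cortical markers ranged from 9.30 to 9.53 and from 9.33 to 9.53 in the injured groups. It ranged from 9.63 to 9.74 in Vehicle and 9.61 to 9.77 in IDR. Of 8 striatal markers Pde10a fell against Vehicle (-0.30) and Pde10a and Gpr6 against IDR (-0.36 each), with mean levels of 9.65 to 9.74 and 9.55 to 9.65 against 9.76 to 10.03 and 9.78 to 9.87, and of 10 interneuron markers 0 passed. Of 10 astrocyte markers Gfap rose in each (0.63 and 0.48), and Gjb6 (0.33) and Aldoc (0.22) against Vehicle. Of 9 microglial markers Itgam (0.89 and 0.70), C1qa (0.72 and 0.59) and Aif1 (0.37 and 0.34) rose and P2ry12 (-0.61 and -0.63) fell. Of 8 endothelial markers Pecam1 (0.31 and 0.38) and Cdh5 (0.26 and 0.31) rose in each and Abcb1a (0.30) against Vehicle. Of 12 cerebellar markers Etv1 fell in each (-0.40 and -0.26) and Neurod1 against IDR (-0.51), and of 9 markers of the oligodendrocyte lineage Pdgfra fell in each (-0.32 and -0.37), while Cspg4 fell (-0.22) and Mbp rose (0.44) against Vehicle. The thalamic marker Ntng1 (-0.40, of 8) and the choroid plexus marker Kcnj13 (-0.52, of 6) fell against Vehicle, and 0 of 11 hindbrain markers passed. The part of these cell types in the receptor values was not tested.

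Without injured arrays 3 and 5, chosen after seeing the data, 8 of the 12 genes still fell against Vehicle: Grm2 (-0.53), Grin3a (-0.39), Grm3 (-0.35), Grm7 (-0.29), Gabra2 (-0.28), Grm5 (-0.26), Grm8 (-0.24) and Grik2 (-0.23). Glra2 (-0.41, adjusted p = 0.0939), Gabrb2 (-0.27, adjusted p = 0.143), Gabra5 (-0.24, adjusted p = 0.0665) and Gabrg3 (-0.20, adjusted p = 0.0766) did not pass. The same 8 passed with the level of Xist as a covariate, for which the share of all genes is not given here. With the replicate number as a block the 12 all passed, and Grin2b (-0.22), Gabrb1 (-0.22) and Grid1 (-0.21) were added. Over all genes 11.5% passed with this block, against 8.34% without it. The block joins injured and Vehicle arrays of different pups, so it does not pair samples of 1 pup and is no independent check of the 12.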

How the data were processed

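Total RNA of 40 brain samples was measured on Affymetrix arrays, 5 in each of 8 groups taken from the labels. The deposited values are log2 signals that the authors made with RMA and the affy package, per the submitters' processing notes; versions and the annotation build are not given in the sources used here. Because RMA equalises the arrays, changes shared by all genes are removed, and an array gives no read depth, so its precision rests on the 5 arrays of a group. Of 34760 probe sets 21640 carried 1 symbol, 1321 several and 11799 none; the probe set of highest mean was kept for each of 19937 genes. Each comparison was fitted on its own groups with limma 3.58.1 (lmFit, eBayes; R 4.3.3, the package data.table, version 1.17.8), adjusted by Benjamini-Hochberg over all genes with a threshold of 0.05, after the code was tested on simulated data. The members and gene lists were chosen with earlier results of these data known. Genes past the threshold were named, up to 12 by size; where none passed, the 2 with the smallest p; array values were given for up to 10 members past it most often, and Gria3, Grin2a, Gabrq, Gabre and Gabra6 were added after their values were seen. Array numbers were taken to pair samples where the correlation of deviations from the group means was over 0.1 in all 5 pairs: this held for the hemispheres without peptide (0.392 to 0.646) and for LPS/HI injured and Vehicle (0.116 to 0.443), and in no other comparison; the labels tie no number to a pup. Alternatives were 1 fit over 8 groups, a filter at log2 6, the mean of probe sets, median centring, the replicate block, Xist as covariate, trend with robust eBayes, and leaving out each array. Promoter sequences are RefSeq's (GRCm38.p6).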

Additional observations from a re-analysis of the deposited data

Results flagged for a closer look

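Within 352 sets of 5 arrays (44 genes in 8 groups), 19 (5.40%) held 1 array whose gap to its nearest neighbour, divided by the whole range, was above Dixon's critical value of 0.71; a 95% critical value leads chance to mark about this share. IDR number 5 was set apart in 5 genes, each time as the lowest: Gabra2 at 10.83 (others from 11.17), Gabrb2 at 11.40 (from 11.71), Gabrg1 at 9.60 (from 9.81), Gabrq at 7.82 (from 8.27) and Glrb at 11.09 (from 11.42). LPS/HI injured number 5 was set apart in 3 genes, with Gabra6 at 7.09 (others up to 4.91), Gabra3 at 11.63 (from 11.87) and Grin3a at 9.98 (from 10.17). In Vehicle, Gabrb1 was low in number 5 (10.67), Grin2a was low in number 4 (9.86) and Gabrr3 was high in number 2 (5.75). In LPS, Gabre was low in number 5 (6.12) and Grm6 was high in number 2 (6.33). In LPS with IDR, Gabrg1 was low in number 2 (9.73), and Grik5 (10.48) and Grin3b (5.73) were low in number 3. With peptide, Gabrr1 was high in uninjured number 2 (7.52), Grin2b was low in injured number 3 (11.18) and Grm5 was high in injured number 5 (11.75).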

How the results depend on the processing

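For the 44 genes, 227 of 263 alternative counts stayed within 1.5 times the count reported, and of 371 gene fold changes 84 lost the threshold and 0 changed sign. With all 8 groups in 1 fit, 11 genes passed for LPS/HI IDR injured against IDR, 10 between hemispheres without peptide and 9 with peptide. That fit takes the spread of every gene from all 8 groups. The shares of all genes that passed in it are not given here, so its counts are not read as results about the receptor genes. A filter on low signal gave 2 genes between hemispheres in each arm, as did trend with robust eBayes, which gave 1 for LPS with IDR against IDR. Median centring gave 2 between hemispheres without peptide, and leaving out injured numbers 3 and 5 gave 0. With Xist as covariate 10 passed between hemispheres with peptide. The replicate block gave 16 between hemispheres without peptide, where correlations met the rule for pairing (7 without injured numbers 3 and 5, chosen after seeing the data), and, where they did not, 7 between hemispheres with peptide (Gabre and Gabrq higher, Gria3, Grin2a, Grin2b, Grm3 and Grm8 lower; sex-linked signal agreed within all 5 numbers, but only 3 correlations were over 0.1) and 1 for LPS/HI IDR injured against IDR; it moved no other count by over 1.5 times. Leaving out single arrays gave 8 to 15 genes against Vehicle, 1 to 8 against IDR, 0 to 4 and 0 to 2 between hemispheres without and with peptide, 0 to 1 for LPS with IDR against IDR, and 0 in the other comparisons. With 5 arrays a group, a difference that did not pass may still exist, and 4 genes have signals under log2 6.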
